A study of Mus musculus with 2 samples.

Results

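Nonclassical monocytes of irradiated and untreated MC38 tumors were identified among sorted CD45+ cells and compared between 2 single-cell libraries. The cells were chosen by their own RNA counts. A barcode (the tag of 1 droplet) was taken as a nonclassical monocyte when it held at least 1000 UMIs (unique molecular identifiers, each marking 1 captured RNA molecule), at most 25% mitochondrial UMIs, at least 3 UMIs of Ace, Adgre4 and Treml4 together, at most 5 UMIs of C1qa, C1qb and C1qc together, no UMI of Cd3d, Cd3g or Ncr1, and under 2% of UMIs from S100a8 and S100a9. This rule selected 170 of 8090 barcodes, 57 of 4679 in the Control library and 113 of 3411 in the IR library.

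MC38 is a mouse colon carcinoma line, grown here as tumors in WT mice. The IR library came from tumors given 20 Gy of radiation in 1 dose, collected 4 days later, and the Control library from tumors without radiation. Live CD45+ cells of several pooled tumors made up each library, so each group was 1 library, no test between the groups was possible, and every interval below is a 95% interval that covers counting error only. The sample records name the cell type as CD45+CD11b+Ly6Chi, which differs from the CD45+ sort of the study's methods. The Control and IR libraries held 48593879 and 42406461 UMIs over all droplets, and of the barcodes analysed 6 were shared between them, none of them a nonclassical monocyte.

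Nonclassical monocytes are the long-lived monocytes that patrol the inner wall of blood vessels. They arise from classical monocytes, which carry high surface Ly6C and enter inflamed tissue, and the conversion depends on the nuclear receptor Nr4a1 and on Pou2f2 and Cebpb. They crawl on endothelium with the integrin Itgal, read fractalkine through Cx3cr1, and carry the activating Fc receptor Fcgr4. Ace (angiotensin-converting enzyme, chr11:105967945-105989964), Adgre4 (an adhesion receptor, chr17:55749984-55853662) and Treml4 (an innate receptor, chr17:48264295-48275360) mark them in mouse data (GRCm38).

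Because the rule used Ace, Adgre4 and Treml4, their levels describe the selection and are not a finding. Ace was present in 51 of the 57 Control and 105 of the 113 IR cells, Adgre4 in 42 and 83, and Treml4 in 32 and 70. All 3 genes were seen in 20 Control and 47 IR cells, 2 of them in 28 and 51, and 1 in 9 and 15. At the edge of the rule, 17 Control and 28 IR cells held exactly 3 UMIs of the trio, while 24 and 33 barcodes with exactly 2 were left outside. The C1q limit set aside a further 21 Control and 42 IR barcodes that met every other condition.

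The question of the comparison was how the immune cells of the tumor differed after irradiation. Nonclassical monocytes were 1.22% of Control barcodes (exact binomial interval 0.924% to 1.58%) and 3.31% of IR barcodes (2.74% to 3.97%), a ratio of 2.72 (1.98 to 3.73). Classical monocytes, taken as barcodes with at least 3 UMIs of Ly6c2 and none of the trio under the same other limits, were 5.81% and 16.6%, a ratio of 2.85 (2.48 to 3.27). Some of these barcodes held RNA of other lineages. Without those with 5 or more UMIs of a lymphoid, dendritic, mast or stromal list, 215 of 272 Control and 452 of 565 IR barcodes remained. The shares given here use all of them. The nonclassical share of both monocyte kinds together was 17.3% in Control (13.4% to 21.9%) and 16.7% in IR (13.9% to 19.7%), a ratio of 0.96 (0.72 to 1.29). C1q macrophages (at least 20 C1q UMIs) stood the other way, at 31.0% of Control and 10.5% of IR barcodes. The IR cells were deeper, with a median of 7173 UMIs against 5209, and a deeper cell reaches 3 UMIs of the trio more easily. When every barcode was thinned to 2000 UMIs before the rule was applied, 23 Control and 33 IR cells remained, 0.541% and 1.04% of barcodes, and the ratio was 1.93 (1.14 to 3.28). At that depth the nonclassical part of both monocyte kinds was 9.79% in Control (95% interval 6.31% to 14.3%) and 6.15% in IR (4.27% to 8.52%), a ratio of 0.63 (0.38 to 1.05).

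**Figure D1:**
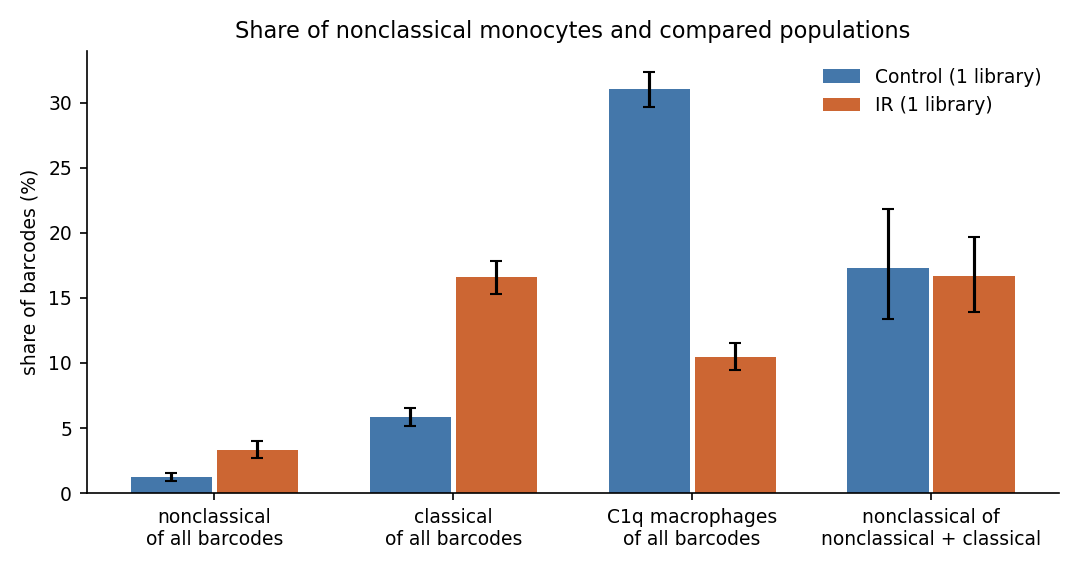
Shares of barcodes in percent in the Control (blue) and IR (orange) library, with exact 95% binomial intervals. The nonclassical share was 1.22% and 3.31% of all barcodes, while its part of nonclassical plus classical monocytes was 17.3% and 16.7%.

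The label was checked against markers that the rule did not use. Levels are in CPM, a gene's counts per 1000000 UMIs summed over the cells of 1 population in 1 library, and log2 ratios are of CPM + 10. Pou2f2, the octamer-binding transcription factor, stood at 329 CPM in the Control and 263 CPM in the IR nonclassical monocytes, against 54.3 and 49.0 CPM in classical monocytes and 21.9 and 34.2 CPM in macrophages. Ifitm6 was less sharp, at 422 and 282 CPM against 253 and 152 CPM in classical monocytes. Ear2, an eosinophil-type ribonuclease, reached 272 and 161 CPM where classical monocytes had 11.9 and 5.60 CPM, log2 ratios of 3.69 and 3.45. Gngt2, a G protein gamma subunit, stood at 755 and 746 CPM against 105 and 132 CPM. Ear2, Gngt2 and Pou2f2 were thus set further apart from classical monocytes than Ifitm6 in both libraries.

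Over the whole marker list of 34 nonclassical genes, the 31 with at least 20 UMIs had a median log2 ratio over classical monocytes of 1.28 in Control and 1.04 in IR, where the median over all genes was -0.03 and -0.06. In Control 20 of the 31 were past 2-fold higher and 0 past 2-fold lower, beside a background of 2.9% of all 7176 genes higher and 5.3% lower. In IR 17 of 31 were past 2-fold higher and 0 lower, beside 1.17% and 1.73% of 9097 genes. Against C1q macrophages the median was 2.04 in Control and 1.45 in IR. Over the classical list the medians were -0.16 and -0.14. Ly6c2 itself was not low: nonclassical monocytes held 943 and 1023 CPM against 2190 and 2193 CPM. Ccr2, Chil3, Hp and Lyz2 lay between -0.20 and 0.22 of the classical level on the log2 scale in both libraries.

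**Figure D2:**
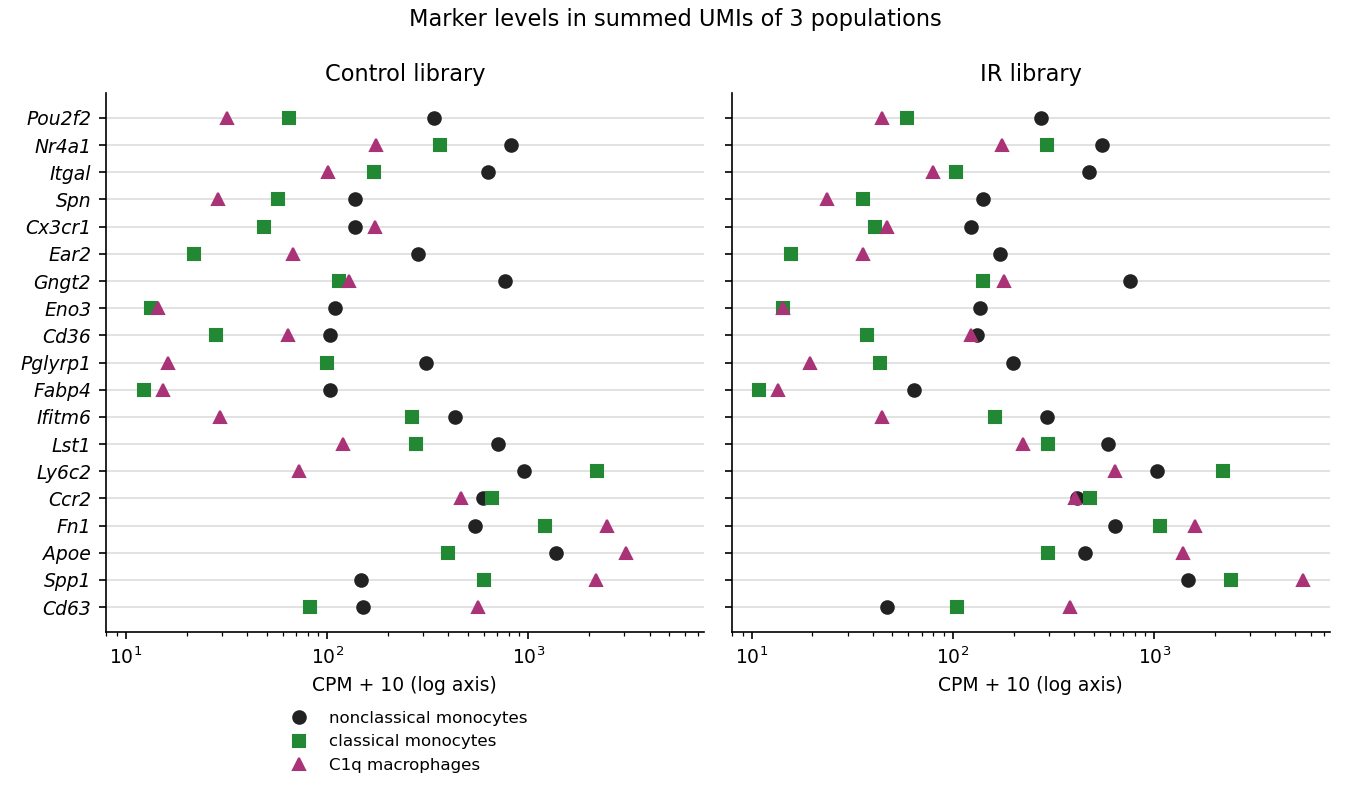
CPM + 10 on a log axis of 19 marker genes in nonclassical monocytes (black), classical monocytes (green) and C1q macrophages (purple), Control library left and IR library right. Pou2f2, Itgal, Ear2, Gngt2 and Eno3 stood highest in the nonclassical cells in both libraries, with Gngt2 at 755 and 746 CPM, while Ly6c2 and Fn1 were higher in classical monocytes.

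By the size rule, 36 genes were higher and 18 lower in nonclassical than in classical monocytes in both libraries, and the 10 that led each direction are given here. Those higher were Ear2, Gngt2, Grk3 (a kinase that desensitizes G protein-coupled receptors), Pou2f2, Itgal, the phosphatase Dusp16, the antibacterial Pglyrp1, Gpcpd1, the small GTPase Rras and the fractalkine receptor Cx3cr1. Itgal, the alpha chain of LFA-1, stood at 620 CPM in Control and 463 CPM in IR against 160 and 93.8 CPM in classical monocytes. Cx3cr1 was at 128 and 113 CPM against 38.5 and 31.1 CPM. Those lower were Gzmc, Gzmf, Gzmd, Nkg7, Gzma, Ly6a, Ifitm1, Cfp, AW112010 and Ccl5. Of these, the granzymes and Nkg7 are genes of cytotoxic lymphocytes, and in IR the ratio of Gzmc was -4.67 over all classical barcodes but 0.0231 once classical barcodes with 5 or more UMIs of a lymphoid, dendritic, mast or stromal list were left out (452 of 565 kept). In Control the same step took Gzmc from -5.64 to -0.37. AW112010, Ccl5 and Ifitm1 were also higher in T and NK barcodes (at least 3 UMIs of Cd3d, Cd3g and Ncr1) than in classical monocytes. In Control they stood at 2431, 1032 and 838 CPM there against 704, 497 and 262 CPM, and in IR at 2229, 1276 and 971 CPM against 726, 466 and 503 CPM. Cfp (properdin, which stabilizes the complement convertase) stood at 70.3 and 131 CPM in nonclassical and 271 and 412 CPM in classical monocytes.

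In genes outside the rule, the cells lay near one another more often than their share of all barcodes, though most neighbours were other cells. With the rule's genes left out, 43.3% of the 15 nearest neighbours of a Control nonclassical monocyte and 42.7% of those of an IR cell were again nonclassical monocytes, which were 2.10% of all barcodes. Classical monocytes were 16.0% and 19.6% of the neighbours, and C1q macrophages 2.57% and 3.30%. In 25 of 57 Control cells and 49 of 113 IR cells most neighbours were nonclassical, and in 4 and 7 cells none was. These shares describe how the chosen cells lie together and are no test.

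At least 1 UMI of another lineage was seen in 52 of 57 Control and 106 of 113 IR cells, and larger amounts in few outside the neutrophil list. In Control, 1 cell of 6010 UMIs held 222 UMIs of the stromal list and 250 UMIs of Saa3, with 3 UMIs of Ace, none of Adgre4 or Treml4, and none of Csf1r, Pou2f2 or Gngt2. A second Control cell held 66 UMIs of the dendritic list, among them 30 of Ccr7 and 35 of Fscn1. In IR, 1 cell held 47 UMIs of the NK list, 34 of them Gzma, together with 12 UMIs of Csf1r. In all, 3 Control and 6 IR cells had 5 or more UMIs of a T, NK, B, dendritic, mast or stromal list, a count that leaves the neutrophil list out. Mast and basophil genes were at 0 in both libraries, as were Cd79a, Ms4a1, Xcr1 and Siglech. Without these 9 cells the share ratio was 2.72. Neutrophil-list RNA was higher in IR, at 586 CPM summed over the list against 307 CPM. G0s2 and Il1r2 gave 6 and 11 of its 96 Control UMIs, and 149 and 165 of its 606 IR UMIs. Csf3r and Trem1, of the same list, had log2 ratios of -0.28 and 0.26. Cells with 5 or more UMIs of the whole list were 3 of 57 in Control and 31 of 113 in IR, with Retnlg at 0 in Control and in 2 of 113 IR cells. S100a8 and S100a9, limited by the rule, stood at 38.4 and 73.5 CPM in Control and 281 and 315 CPM in IR. They came from 2 and 1 cells in Control and 11 and 6 cells in IR. Of the IR UMIs, 217 of 290 of S100a8 and 238 of 326 of S100a9 came from 1 cell each. The part of neutrophil RNA in the results was not tested.

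Free RNA, which enters droplets from lysed cells, was measured in droplets of 1 to 100 UMIs. Gzmc, Gzmd and Gzmf, which were abundant there (2353 CPM in Control and 7526 CPM in IR, chosen after their values were seen), gave 8 UMIs in Control and 54 UMIs in IR over all nonclassical monocytes, or 25.6 and 52.2 CPM. That is 1.09% and 0.694% of the level in empty droplets. At these shares free RNA would supply 1.33 CPM of Isg15 in Control and 4.39 CPM in IR, and 9.77 and 12.6 CPM of Il1b. The limit on Cd3d, Cd3g and Ncr1 also removes barcodes with much lymphocyte RNA, so these shares are for the cells that the rule kept. The shares rest on those 3 granzyme genes alone. In IR, Spp1 (1466 CPM), Ccl2 (1135 CPM) and Isg15 (513 CPM) were lower in nonclassical monocytes than in empty droplets, which had 2211, 1208 and 632 CPM. Il1b (4491 CPM), Rsad2 (189 CPM) and Cd300lf (263 CPM) were higher than there, at 1811, 109 and 140 CPM.

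In nonclassical monocytes, 5781 genes had at least 20 UMIs over both libraries, and 141 of them (2.44%) were past 2-fold higher in IR and 78 (1.35%) past 2-fold lower. With intervals that did not overlap, whatever the size, 200 genes (3.46%) were higher and 189 (3.27%) lower. Under TMM scaling, which raised every log2 ratio of IR over Control by 0.11, the split was 170 higher and 52 lower. In classical monocytes 1.06% of 9417 genes were past 2-fold higher and 0.552% lower, and 7.86% and 7.57% had intervals apart, at a depth of 1767762 and 4820815 UMIs against 312736 and 1033757 UMIs for the nonclassical cells. When, for each gene, the richest cell of each library was left out, 118 of the 141 genes stayed past 2-fold higher and 20 had too few UMIs left, while 30 of the 78 stayed past 2-fold lower and 31 had too few. By the fuller rule (100 CPM in 1 library, 2-fold, intervals apart), 37 of 39 genes met it both ways on the higher side and 5 of 21 on the lower side.

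The 12 leading genes higher in IR were Ccl12, Spp1, Ifit3, Isg15, Clec5a, G0s2, Pf4, Ccl2, Rsad2, Il1r2, Cd300lf and Cd9. All 12 were also higher in IR in classical monocytes, with log2 ratios from 0.94 (Cd300lf) to 3.03 (G0s2). The same held in C1q macrophages, from 0.44 (Pf4) to 2.82 (Isg15), so these differences were not particular to the nonclassical cells. G0s2 (19.2 and 144 CPM) and Il1r2 (35.2 and 160 CPM) belong to the neutrophil list, of which 3 Control and 31 IR cells held 5 or more UMIs. That count includes the UMIs of G0s2 and Il1r2 themselves, so it is no separate measure of neutrophil RNA. The part of neutrophil RNA in both genes was not tested. Spp1 (osteopontin, a secreted matrix protein of tumor macrophages) stood at 138 CPM (99.5 to 185) in 11 of 57 Control cells and 1466 CPM (1393 to 1541) in 44 of 113 IR cells. In IR, Spp1 was at 2399 CPM in classical monocytes, 5455 CPM in C1q macrophages and 1788 CPM in T and NK barcodes. Ccl2, the chemokine that draws Ccr2-bearing monocytes, was at 281 CPM (226 to 347) and 1135 CPM (1071 to 1201), and Ccl12, which acts on the same receptor, at 6.40 and 178 CPM. In IR, 377 of 1515 Spp1 UMIs and 352 of 1173 Ccl2 UMIs came from 1 cell each. Without the richest cells the log2 ratios were 3.63 for Spp1 and 1.73 for Ccl2, against 3.32 and 1.97 over all cells. Of the 184 Ccl12 UMIs in IR, 96 came from 1 cell, and its log2 ratio was 3.52 with and 2.87 without the richest cells. Pf4, a platelet and macrophage chemokine, had 108 of 169 IR UMIs in 1 cell and a ratio of 2.05 with and 0.94 without it. Cd300lf, a lipid-binding receptor of myeloid cells, was spread more evenly, in 13 of 57 Control and 76 of 113 IR cells, at 73.5 and 263 CPM. Cd9, a tetraspanin, was in 18 and 78 cells at 131 and 409 CPM, and Clec5a, an activating lectin receptor, in 4 and 30 cells at 12.8 and 111 CPM.

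**Figure D3:**
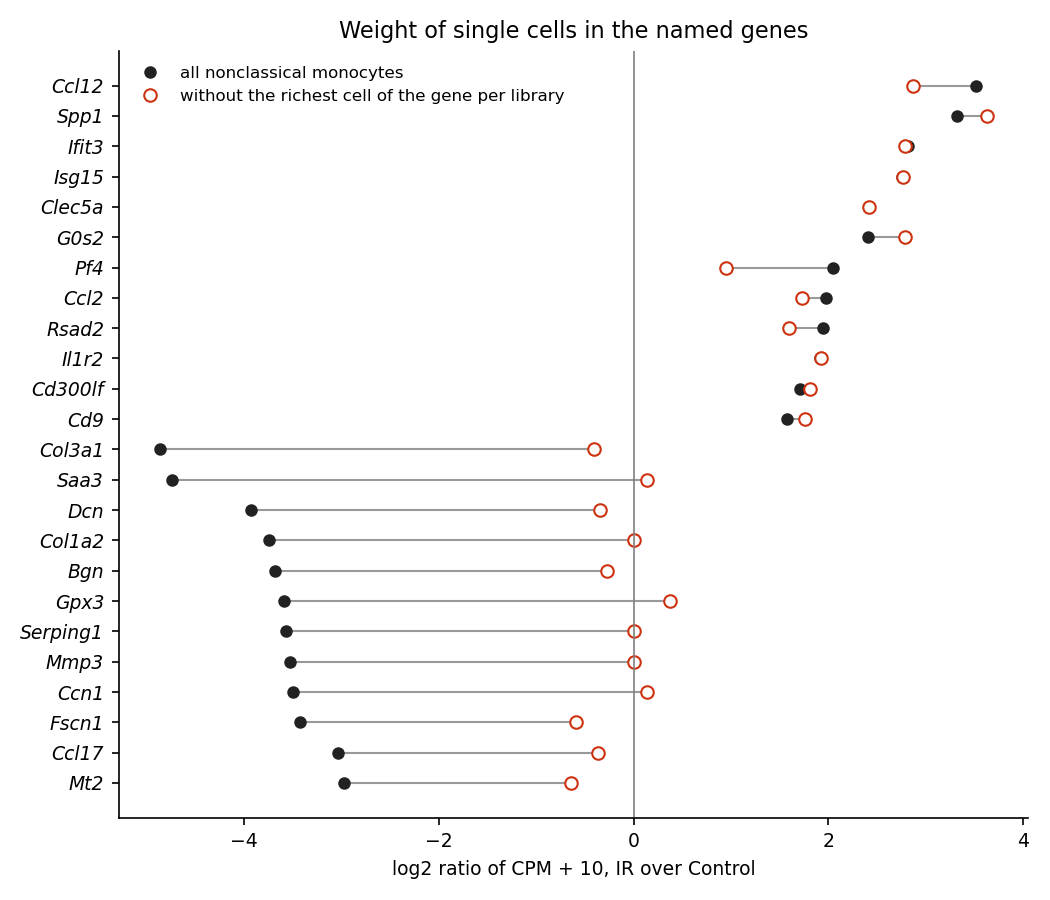
Log2 ratio of CPM + 10, IR over Control, of the 12 leading genes in each direction, for all nonclassical monocytes (black) and without the cell that held most UMIs of the gene in each library (open red). Of the genes higher in IR only Pf4 came under 1, at 0.94, while each gene lower in IR lay between -0.64 and 0.37 without its richest cell.

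The 12 leading genes lower in IR were Col3a1, Saa3, Dcn, Col1a2, Bgn, Gpx3, Serping1, Mmp3, Ccn1, Fscn1, Ccl17 and Mt2, and each came from 1 cell or nearly so. Col3a1, a collagen chain, had 87 of its 88 Control UMIs in 1 cell, and all 250 Control UMIs of Saa3, an acute-phase protein, were in 1 cell. Fscn1, an actin bundler of mature dendritic cells, had 35 of 37 in 1 cell. Without their richest cells the log2 ratios of Col3a1 and Saa3 were -0.41 and 0.13, against -4.86 and -4.74 over all cells. None of the 12 was past 2-fold without its richest cell.

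The 5 genes that met the rule both ways on the lower side, chosen after this was seen, were Cd63, Apoe, Irf2bpl, Cyfip2 and Chka. Apoe, the lipid carrier made by macrophages, stood at 1365 CPM (1239 to 1501) without radiation and 442 CPM (402 to 485) after IR, with UMIs in 48 of 57 and 70 of 113 cells. Its log2 ratio was -1.61, and -1.73 without the richest cells, against -0.44 in classical monocytes. Cd63, a tetraspanin of late endosomes, was at 141 CPM (102 to 189) and 36.8 CPM (26.0 to 50.5), where classical monocytes had 71.8 and 94.8 CPM. Of its 44 Control UMIs, 18 came from 1 cell. Its log2 ratio was -1.69, and -1.25 without the richest cells. It was -0.64, under 2-fold, without cells with 5 or more UMIs of a T, NK, B, dendritic, mast or stromal list. Other macrophage genes of low level went the same way. Mrc1, the mannose receptor, was at 79.9 and 10.6 CPM, Ms4a7 at 51.2 and 13.5 CPM, and Lpl (lipoprotein lipase) at 70.3 and 15.5 CPM, each with intervals apart and each in at most 11 cells of either library. For Ms4a7, 7 of 16 Control and 6 of 14 IR UMIs came from 1 cell each. Hmox1, which breaks down heme, was at 467 and 242 CPM, a ratio of -0.92, while classical monocytes had 181 and 216 CPM. Of 13 macrophage-list genes tested, 4 were past 2-fold lower and 2 (Spp1 and Pf4) past 2-fold higher, with a median of 0.17. C1q macrophages were the larger population in Control, and C1q RNA in empty droplets was 4307 CPM there against 1519 CPM in IR. At the shares given above, free RNA would supply 18.9 CPM of Apoe in Control and 3.16 CPM in IR.

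Interferon-induced genes were the list with the most genes past 2-fold. Interferons signal through receptors to STAT and IRF factors, which bind promoters and switch on antiviral genes such as the IFIT family, Isg15 and the chemokine Cxcl10. Of 40 listed genes 38 were tested, of which 36 were higher in IR, 17 past 2-fold and 24 with intervals apart, beside the 2.44% and 3.46% of all genes. None was past 2-fold lower. The list median was a log2 ratio of 0.93, where all genes had -0.03. In classical monocytes, 40 of 40 were higher, 21 past 2-fold and 37 with intervals apart, with a median of 1.06.

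To show the sequences behind this group, the 250 bases before the start of 3 of its genes are printed from the RefSeq promoter set (GRCm38.p6). They were chosen as the ubiquitin-like Isg15, the most abundant chemokine of the list (Cxcl10) and the leading IFIT gene (Ifit3). Each lies on the gene's strand, and capitals mark GAAA, any 2 bases, GAAA, or its reverse complement, the core of the element that interferon-activated factors bind. They lie at chr4:156200819-156201068 (minus strand), chr5:92348890-92349139 (minus strand) and chr19:34583279-34583528 (plus strand).
Isg15 promoter: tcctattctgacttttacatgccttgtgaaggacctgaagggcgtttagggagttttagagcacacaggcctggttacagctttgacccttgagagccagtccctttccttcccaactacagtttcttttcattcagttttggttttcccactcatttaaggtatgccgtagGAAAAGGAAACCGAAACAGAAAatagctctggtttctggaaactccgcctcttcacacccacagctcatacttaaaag
Cxcl10 promoter: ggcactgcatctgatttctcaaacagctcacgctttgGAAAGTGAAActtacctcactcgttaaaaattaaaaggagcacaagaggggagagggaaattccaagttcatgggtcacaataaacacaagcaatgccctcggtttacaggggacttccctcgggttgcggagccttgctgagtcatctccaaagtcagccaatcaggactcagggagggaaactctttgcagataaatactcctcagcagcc
Ifit3 promoter: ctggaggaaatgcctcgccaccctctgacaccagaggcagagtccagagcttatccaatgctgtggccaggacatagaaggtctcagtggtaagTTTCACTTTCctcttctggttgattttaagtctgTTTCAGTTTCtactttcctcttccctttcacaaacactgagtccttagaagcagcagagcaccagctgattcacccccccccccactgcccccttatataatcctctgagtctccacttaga
Of the 17 interferon genes past 2-fold higher, 16 matched a promoter, and 11 of these (68.8%) held the letters on either strand in the window from 250 bases before to 50 after the start. Among all 27025 genes with a promoter in the set, 3.99% held them. Overlapping matches were counted separately, so the run in Isg15 counts as 3. A match of letters is a description of the sequence and not a binding site.

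Isg15 was at 67.1 CPM (41.6 to 103) in Control, from 21 UMIs in 13 of 57 cells, and 513 CPM (470 to 558) in IR, from 530 UMIs in 71 of 113 cells. Its log2 ratio was 2.76. At 2000 UMIs per cell it was seen in 11.1% of 54 Control cells and 31.8% of 110 IR cells. T and NK barcodes, which also answer to interferon, had 9.49% and 34.4%. Ifit3 stood at 6.40 CPM (0.77 to 23.1) and 105 CPM (86.6 to 127), in 2 and 23 cells. Rsad2 (viperin, an antiviral radical SAM enzyme) was at 41.6 and 189 CPM. Slfn4, a Schlafen gene of monocytes, was at 6.40 and 82.2 CPM. Cxcl10, which draws Cxcr3-bearing T cells, was at 547 CPM (468 to 635) and 1139 CPM (1074 to 1206), in 19 and 71 cells.

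Guanylate-binding proteins and related GTPases differed among themselves. Igtp, an immunity-related GTPase, was at 28.8 and 96.7 CPM and the guanylate-binding protein Gbp5 at 16.0 and 66.7 CPM, log2 ratios of 1.46 and 1.56, where classical monocytes had 0.45 and 0.29. Gbp2, Gbp3 and Gbp7 stood at 0.05, 0.23 and 0.42 with overlapping intervals. Outside the interferon list, the cytokine signalling inhibitor Socs1 was at 57.6 CPM (34.1 to 91.0) and 152 CPM (129 to 178), a ratio of 1.26 against 0.13 in classical monocytes. These differences between the 2 kinds of monocyte were not tested. Some of the signal-carrying factors themselves hardly differed. Stat2 stood at 73.5 and 74.5 CPM and Irf9 at 48.0 and 42.6 CPM, with overlapping intervals, while Irf7 was at 182 and 334 CPM. Ly6e, the most abundant gene of the list, was at 2149 and 1971 CPM.

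**Figure D4:**
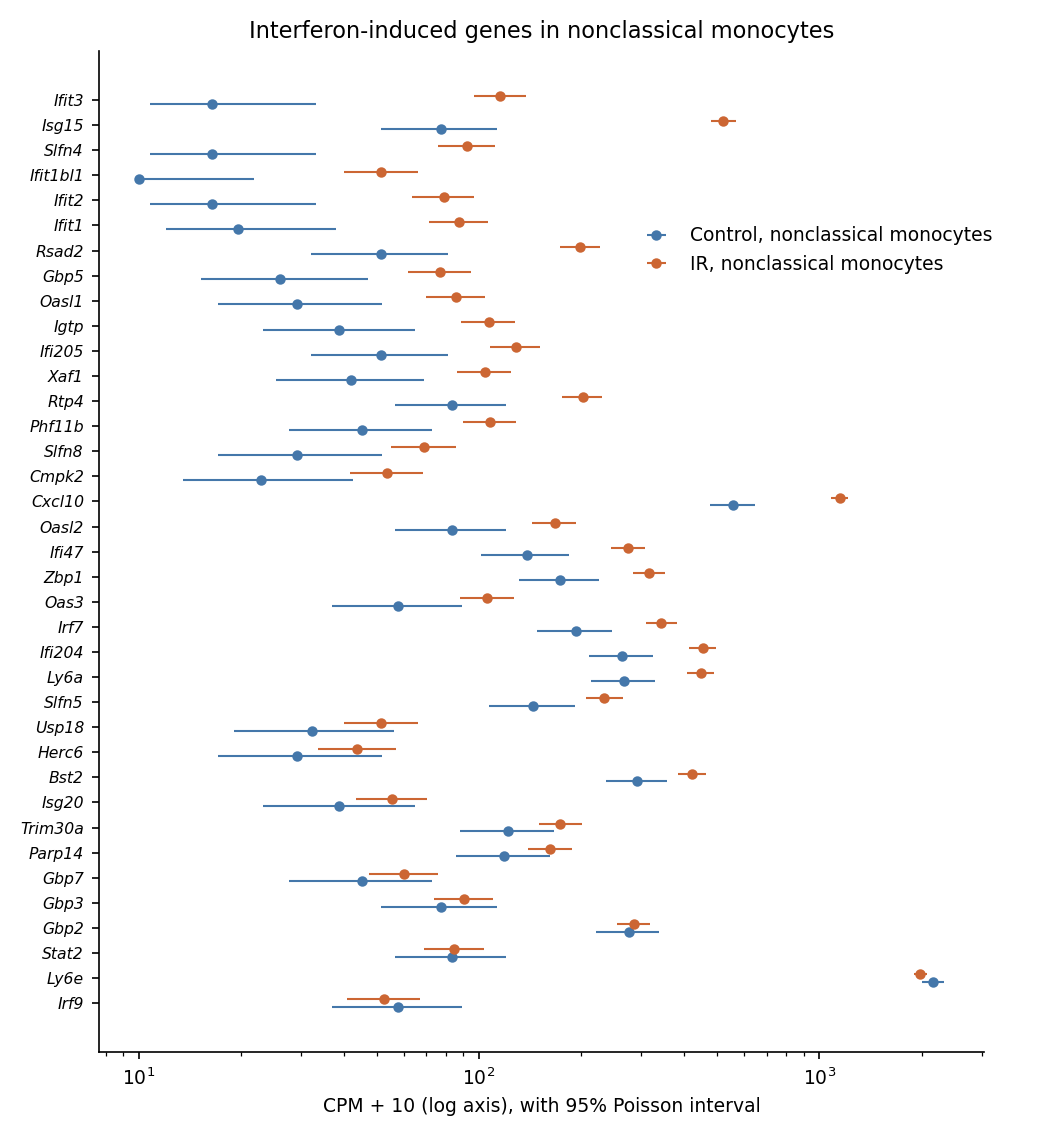
CPM + 10 on a log axis of 37 tested interferon-induced genes in Control (blue) and IR (orange) nonclassical monocytes, with 95% Poisson intervals, ordered by log2 ratio from the highest at the top. Isg15 moved from 67.1 to 513 CPM, and Stat2, Ly6e and Irf9 at the bottom had overlapping intervals.

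The interferon level was below that of classical monocytes in both libraries. In Control 31 of 37 tested genes and in IR 38 of 40 were lower in nonclassical than in classical cells, with medians of -0.42 and -0.52. Isg15 at 67.1 and 513 CPM compared with 222 and 1281 CPM in classical monocytes. The 6 genes past 2-fold lower in Control and 11 in IR stand beside the background of 5.3% and 1.73%. Cell by cell at 2000 UMIs, the list gave a median of 10 UMIs in Control nonclassical monocytes (range 1 to 26) and 14 in IR (3 to 84), while classical monocytes had 12 (0 to 66) and 22 (1 to 157). The IR cells were the more unequal, with some far above the rest.

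Of 28 genes tested of the NF-kB list, which holds its subunits, inhibitors and induced cytokines, 23 were higher in IR, 3 past 2-fold and 7 with intervals apart, beside the 2.44% and 3.46% of all genes. The median was 0.31, and 0 had intervals apart on the lower side. Il1b, the inflammatory cytokine released through the inflammasome, was the most abundant of those 7, at 2174 CPM (2014 to 2344) without radiation and 4491 CPM (4363 to 4623) after IR, in 47 of 57 and 100 of 113 cells. Cxcl2, which draws neutrophils, was at 1935 and 3242 CPM, Tnf at 92.7 and 170 CPM, and Ccl3 and Ccl4 at 205 and 335 CPM and 432 and 591 CPM. Of their Control UMIs, 11 of 29 of Tnf, 22 of 64 of Ccl3 and 67 of 135 of Ccl4 came from 1 cell each. Nfkbia, the inhibitor that NF-kB itself induces, was at 1394 and 2102 CPM. Nfkb1 (393 and 411 CPM), Rel (329 and 314 CPM), Rela (109 and 75.5 CPM) and Relb (54.4 and 45.5 CPM), which are subunits, and the chemokine Ccl5 (173 and 158 CPM) had overlapping intervals. Classical monocytes had a list median of 0.20. There Cxcl2 went from 1700 to 5801 CPM, a log2 ratio of 1.76 against 0.74 in nonclassical cells. In the nonclassical cells 188 of 605 Control UMIs of Cxcl2 came from 1 cell, and the ratio was 1.07 without the richest cells.

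Of 13 tested genes of a list of suppressive, checkpoint and costimulatory ligands and cytokine inhibitors, 12 were higher in IR, 3 past 2-fold (Arg1, Cd80 and Socs1) and 9 with intervals apart, beside the 2.44% and 3.46% of all genes. The median was 0.67. Cd274 (PD-L1) was at 163 CPM (121 to 214) in 19 of 57 cells and 251 CPM (221 to 283) in 85 of 113. The costimulators Cd80 and Cd86 were at 25.6 and 66.7 CPM and at 118 and 194 CPM. Tgfb1 was at 646 and 906 CPM, above the 472 and 522 CPM of classical monocytes, and Socs3 at 476 and 669 CPM. Arg1 (arginase) was at 317 and 784 CPM but in few cells, 13 of 57 and 33 of 113, and below classical monocytes at 675 and 2199 CPM. Nos2 was at 6.40 and 21.3 CPM with overlapping intervals. Il1rn, which blocks the interleukin-1 receptor, was at 157 and 267 CPM. It came from 6 Control and 54 IR cells, and its log2 ratio went from 0.73 to 1.77 when the richest cells were left out. Hmox1 was the exception, lower in IR as given above.

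The genes that define the nonclassical state differed little and mostly toward lower values in IR. Of 32 tested list genes, 24 were lower and 8 higher, none past 2-fold lower, with 7 lower and 1 higher by intervals apart, beside the 3.27% and 3.46% of all genes. The median was -0.29. The rule admits a deeper cell at a lower level of the trio, and the IR cells were deeper. At 2000 UMIs, 21 of 54 Control cells (38.9%) and 31 of 110 IR cells (28.2%) still held at least 3 trio UMIs. The part of this selection in the list values was not tested. Nr4a1 was at 812 CPM (715 to 918) and 539 CPM (495 to 585), Itgal at 620 CPM (536 to 714) and 463 CPM (423 to 507), Ear2 at 272 and 161 CPM and Pglyrp1 at 301 and 190 CPM. Pou2f2, Cx3cr1, Spn, Gngt2 and Csf1r, the receptor for the growth factor these cells need, had overlapping intervals. Classical monocytes had Nr4a1 at 355 and 283 CPM and a list median of -0.02. Per cell at 2000 UMIs, the list gave a median of 26.5 UMIs in Control and 26 in IR nonclassical monocytes, and 12 and 13 in classical monocytes. Summed over the list the log2 ratio was -0.11 (-0.16 to -0.06), a sum to which Cebpb alone gave 1430 of 4049 UMIs in Control. Cd9 was the 1 gene of the list past 2-fold, and its log2 ratio in classical monocytes was 1.54.

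Among transcription factors, Nr4a1, Klf2, Klf4 and Atf3 were lower in IR with intervals apart, 4 of 17 tested, beside the 3.27% of all genes. In value 10 were lower and 7 higher, and 0 were higher with intervals apart. Klf2 was at 336 CPM (275 to 406) and 165 CPM (142 to 192), and Klf4 at 975 CPM (869 to 1091) and 580 CPM (535 to 629). Both are Krüppel-like factors that restrain activation in myeloid cells. In classical monocytes Klf2 was at 187 and 127 CPM and Klf4 at 587 and 391 CPM. Atf3 was at 515 and 289 CPM, a ratio of -0.81, or -0.40 without the richest cells. Of the 105 Control UMIs of Klf2, 32 came from 1 cell, and its ratio was -0.98 with and -0.70 without the richest cells. Cebpb, present in all 57 and all 113 cells, was at 4573 and 4855 CPM, above the 2612 and 2764 CPM of classical monocytes. Spi1, Irf8, Runx3 and Zeb2 had overlapping intervals.

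Receptors for antibody differed between members of the family. Fcgr1 was at 176 CPM (132 to 229) and 270 CPM (239 to 303), the inhibitory Fcgr2b at 256 CPM (203 to 318) and 385 CPM (348 to 425), and Fcgr3 at 275 CPM (220 to 340) and 467 CPM (426 to 511). Fcgr4, the receptor that marks nonclassical monocytes, was at 150 and 118 CPM, with overlapping intervals. In classical monocytes it was at 67.9 and 151 CPM, so it was higher in nonclassical cells in Control, by 1.04 on the log2 scale, and not in IR, at -0.33. The shared signalling chain Fcer1g was at 3712 and 3780 CPM.

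**Figure D5:**
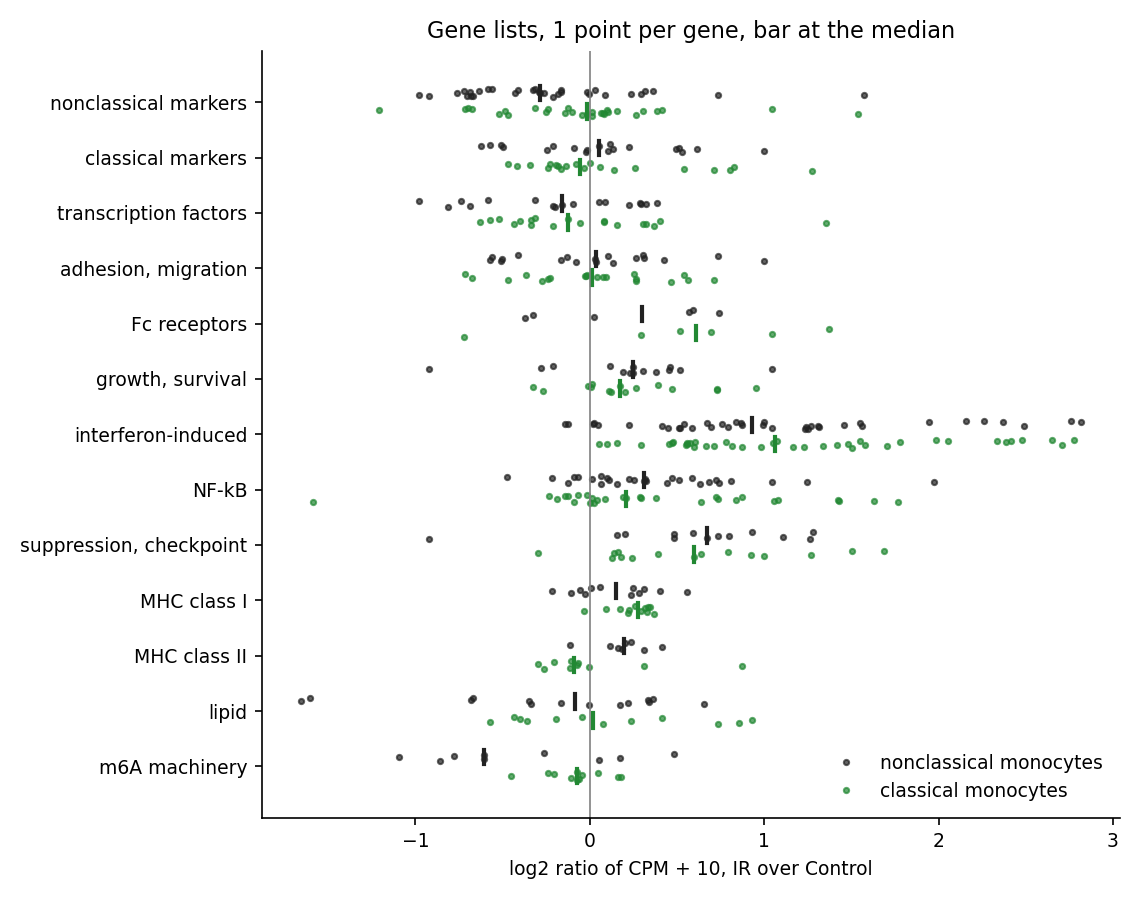
Log2 ratio of CPM + 10, IR over Control, of each tested gene of 13 lists, in nonclassical (black) and classical (green) monocytes, with a bar at the list median. The interferon medians were 0.93 and 1.06, and the nonclassical marker medians -0.29 and -0.02.

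For adhesion and migration, Itgal and Itga4 (the VLA-4 alpha chain, 323 and 216 CPM) and Ccr2 (582 and 405 CPM) were lower with intervals apart, and Ccr1, a receptor for Ccl3 and Ccl5, was higher at 106 CPM (72.6 to 148) and 221 CPM (193 to 251). The other 14 of 18 tested had overlapping intervals, among them Cxcr4 at 387 and 398 CPM and Cd47 at 473 and 519 CPM. S1pr5, the sphingosine receptor that lets these cells leave marrow, had 6 UMIs in Control and 2 in IR, too few to compare. Of 14 growth and survival genes, Csf2rb, Bcl2a1a and Bcl2a1b had intervals apart, all higher in IR. The Bcl2a1 copies are near identical and can share reads. Bcl2, at 51.2 and 22.3 CPM, had overlapping intervals.

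Antigen-presenting genes of class II were uneven among the cells. At 2000 UMIs the summed class II list had a median of 3 UMIs in Control and 7.5 in IR nonclassical monocytes, with ranges of 0 to 95 and 0 to 115. Cells with at least 10 such UMIs were 16 of 54 (29.6%) and 45 of 110 (40.9%), and intervals overlapped. T and NK barcodes, which should lack class II, had 60 of 548 (10.9%) and 63 of 485 cells. Summed over cells, Cd74 was at 4944 and 5629 CPM and H2-Aa at 1324 and 1560 CPM. The list median was 0.19, but -0.035 without the 9 cells with RNA of other lineages, so no direction was kept. Of 12 class I genes 8 were higher, with intervals apart for H2-D1, Psmb8 and Psmb9, and a median of 0.15.

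In lipid handling, nonclassical monocytes stood apart from classical ones by Cd36 (92.7 and 122 CPM against 18.1 and 27.4), Fabp4 (92.7 and 54.2 CPM against 2.26 and 0.83) and Fabp5 (512 and 647 CPM against 251 and 219). Between libraries, 14 were tested and the median was -0.09. Apoe, Apoc2 and Lpl were lower and Fabp5 and Plin2 (166 and 268 CPM, a lipid droplet coat protein) higher, with intervals apart. Of 9 complement genes tested, C3 was at 307 and 152 CPM and Cfp at 70.3 and 131 CPM with intervals apart, and Serping1 came from 1 cell. Of the 96 Control UMIs of C3, 31 also came from 1 cell, and its log2 ratio was -0.97 with and -0.49 without the richest cells. Of 7 p53 targets and 8 Toll-like receptor genes tested, none was past 2-fold, with medians of 0.03 and 0.07. Cdkn1a, the p53-induced cell cycle inhibitor, was higher by 0.61 and Btg2 stood at -0.64, both with intervals apart.

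The study concerned YTHDF2, which reads the m6A mark on RNA and speeds decay of the marked transcripts. Ythdf2 gave 8 UMIs in 7 of 57 Control cells and 41 UMIs in 36 of 113 IR cells, 25.6 CPM (11.0 to 50.4) and 39.7 CPM (28.5 to 53.8), and the intervals overlapped. At 8 and 41 UMIs no difference was detectable. Classical monocytes had 40.7 and 42.3 CPM. Of 9 m6A genes tested 6 were lower and 3 higher, with a median of -0.61, and Ythdc1, a nuclear reader, had intervals apart at 122 CPM (86.0 to 167) and 66.7 CPM (51.9 to 84.5). Ythdc2 was past 2-fold lower at -1.09 with overlapping intervals. Of the study's transcripts linked to YTHDF2, Metrnl stood at 233 and 282 CPM and Smpdl3b at 99.1 and 63.8 CPM, both with overlapping intervals. Both were above the classical level in both libraries.

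Among themselves, nonclassical monocytes ranged from Ly6c2-negative to Ly6c2-bearing. At 2000 UMIs, 29 of 54 Control cells (53.7%) and 52 of 110 IR cells (47.3%) had no Ly6c2 UMI, against 9.69% and 8.38% of classical monocytes, which were chosen by Ly6c2. Cells with at most 2 Ly6c2 UMIs at full depth (32 Control and 53 IR) were shallower, with medians of 3634 and 5610 UMIs. The medians were 6311 and 10319 UMIs for cells with 3 or more (25 Control and 60 IR). Classical monocytes were chosen by that same count of Ly6c2, so by the rules only the trio set these cells apart from them. Pou2f2 was at 464 and 385 CPM in the Ly6c2-low cells and 226 and 214 CPM in the others, and Itgal at 877 and 603 CPM against 424 and 407 CPM. Chil3, a classical gene, ran opposite, at 354 and 301 CPM against 1017 and 762 CPM. Isg15 was at 51.6 CPM in Ly6c2-low and 79.1 CPM in other Control cells, and at 519 and 510 CPM in IR cells. Few cells were cycling. At 2000 UMIs, 1 of 54 Control and 2 of 110 IR cells had 3 or more UMIs of the cycling list, against 3.49% and 2.19% of classical monocytes and 20.4% and 18.8% of T and NK barcodes.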

How the data were processed

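The authors sorted live CD45+ cells from pooled tumors and made 1 droplet 3' library per group. The deposited matrices hold raw UMI counts of 32285 genes for every droplet, made by the authors with Cell Ranger 6.0.1 on mm10 (the file headers name version 4). No normalization had been applied and empty droplets were kept, which allowed free RNA to be measured.

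UMI counts were summed over the cells of a population and library and given as CPM. Genes with at least 20 UMIs over both groups compared were tested by size: past 2-fold on log2(CPM + 10), with exact 95% Poisson intervals, or Clopper-Pearson intervals for shares. With 1 library per group no p-value was computed, and a difference between groups cannot be told apart from one between libraries. UMIs mark molecules, but intervals cover counting error only. Members, lists and comparisons were chosen with earlier results of these data known. The genes named had at least 100 CPM in 1 library, a 2-fold difference and intervals apart: the 12 leading in each direction between libraries, and the 10 leading in each direction against classical monocytes in both libraries. C1q macrophages had at least 20 C1q UMIs, and T and NK barcodes at least 3 UMIs of their defining genes. Neighbours came from 30 components of 2000 variable genes, 15 per cell. Doublets were not removed. Scrublet's automatic threshold marked none, so the highest 6% of scores were removed as an alternative. Counts were computed with Python 3.11.15, numpy 2.4.6, scipy 1.17.1, scanpy 1.11.5 and scikit-learn 1.9.0, and TMM factors with edgeR 4.0.16 in R 4.3.3. The rule for calling genes was checked on simulated sums with counting error only. That check does not cover UMIs gathered in 1 cell or differences between libraries. Alternatives changed the limits of the rule, depth, scaling, pseudocount, gene filter and free RNA. Leaving out members or classical monocytes with RNA of other lineages, leaving out the richest cell of each gene, and the share of both monocyte kinds at equal depth were chosen after seeing the data. Some genes of the lists are counted in them but are not reported here by name.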

Additional observations from a re-analysis of the deposited data

Results flagged for a closer look

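In the IR library, interferon-induced genes reached 8118 CPM in empty droplets, against 4141 CPM in Control, and Ace, Adgre4 and Treml4 together 25.8 CPM against 12.7 CPM. Barcodes with at least 3 UMIs of the trio and more than 5 C1q UMIs, which the rule sets aside, were 1.23% of IR and 0.449% of Control barcodes.

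For 4 genes of the lists the log2 ratio of IR over Control had opposite signs in nonclassical and classical monocytes, with a size of at least 0.5 and intervals apart in both. Other genes of opposite sign were nearer 0 in classical monocytes or outside the lists, such as Cd63 (-1.69 and 0.36), Hmox1 (-0.92 and 0.24), Bgn (-3.69 and 0.88) and Mt2 (-2.97 and 0.61). In nonclassical monocytes Cd63 was at -0.64 without cells with RNA of other lineages. There 44 of 45 Control UMIs of Bgn and 51 of 57 of Mt2 came from 1 cell each. The difference between the populations was not tested. Ms4a7 stood at -1.38 and 1.06. In nonclassical monocytes 7 of 16 Control and 6 of 14 IR UMIs of Ms4a7 came from 1 cell each. Without the richest cells it had too few UMIs to be tested. Ccr7 stood at -3.08 and 0.73, Col3a1 at -4.86 and 2.10 and Dcn at -3.93 and 1.75, and in nonclassical monocytes nearly all Control UMIs of these 3 came from 1 cell each.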

How the results depend on the processing

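No paired analysis was possible because each group had a single library, and for the same reason no replicate could be left out. Of the values that answer a comparison, 210 stayed within their limits of change and 30 moved; of single genes, 994 stayed, 131 moved and 11 changed sign. The count of genes past 2-fold higher in IR (141) was 223 with a trio of at least 5 UMIs, 238 with the rule applied at 2000 UMIs, 317 with a pseudocount of 1 CPM, 72 with at least 50 UMIs per gene and 46 in the 5 Control and 7 IR cells with no UMI of other lineages. The count lower (78) was 46 with a trio of at least 2, 149 at 2000 UMIs, 122 with each cell weighing the same, 172 with the pseudocount of 1, 22 with at least 50 UMIs, 236 with no filter, 23 in the cells with no UMI of other lineages and 31 without the richest cell of each gene. The interferon median (0.93) was 1.79 at 2000 UMIs and -0.85 in the 5 and 7 cells. The MHC class II median (0.19) was 0.050 and 0.35 with a trio of at least 2 and 5, 0.52 with C1q of at most 2, 0.66 at 2000 UMIs, 0.42 with equal weights, 1.86 in the 5 and 7 cells, -0.035 without cells with RNA of other lineages and 0.34 without the richest cells, and in classical monocytes (-0.09) it was -0.23 at 2000 UMIs and -0.55 without such classical cells. The nonclassical median over macrophages in Control (2.04) was 2.37 at 2000 UMIs and 1.51 in the 5 cells, that over classical monocytes in IR (1.04) was 0.61 in the 7 cells, the share ratio (2.72) was 1.93 at 2000 UMIs, and the ratio of the nonclassical part of both monocyte kinds (0.96) was 0.63. Signs changed against classical monocytes for Ccl5 (0.80 in IR), Ifitm1 (1.29 in Control), Pglyrp1 (-0.25 in IR) and Rras (-2.45 in Control) in the 5 and 7 cells, for Ly6a (0.30 in Control) at 2000 UMIs, and in IR for Gzma (1.55), Gzmc (0.0231) and Nkg7 (0.63) without classical cells with RNA of other lineages. Saa3, IR over Control, was 2.17 with a trio of at least 5, 1.75 with at least 2 trio genes and 1.63 without cells with RNA of other lineages. The causes were not tested. The 312736 Control UMIs limit what could be seen of genes under about 20 UMIs.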
